A study of Mus musculus with 14 samples.

Results

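The comparison described here sets the shDIS3L2 library against the shLacZ library of embryoid bodies (EBs) at d6, the 2 of the 14 libraries of the series that carry this day in their labels. EBs are aggregates in which mouse embryonic stem cells (ESCs) differentiate without further instruction once the factors that hold them in the undifferentiated state are withdrawn. The shDIS3L2 line expressed a short hairpin RNA (shRNA) against Dis3l2 and the control line an shRNA against LacZ, a bacterial gene that mouse cells lack. Both lines came from mouse ESCs with a GFP reporter of Osr1, were kept with LIF and 2i (a pair of kinase inhibitors) before differentiation, and formed EBs in hanging drops with serum after LIF and 2i were removed, so that time in culture and medium were shared and the shRNA was the labelled difference. Each shRNA was followed in 1 line, with 1 library per line and day, and d6 had no replicate, so no p-value is given and the difference between the libraries cannot be told apart from a difference between the lines or the EB preparations.

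DIS3L2 is an exonuclease that degrades RNAs carrying uridine tails at the 3′ end, among them precursors of let-7 microRNAs and noncoding RNAs such as the RNA of the signal recognition particle. In EBs, cells leave the pluripotent state, pass through a stage like the primitive streak, and form an outer layer of primitive endoderm derivatives around inner mesoderm. Visceral endoderm, which takes up and secretes nutrients and serum proteins, and parietal endoderm, which lays down a thick basement membrane, belong to the outer layer. Blood islands, endothelium, cardiac and smooth muscle cells and fibroblast-like mesenchyme arise from the mesoderm.

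The shLacZ library held 13304344 reads on genes and the shDIS3L2 library 10610122, within the 7178712 to 39888099 reads of the 14 libraries. Levels are given as CPM, the reads of a gene scaled to a common total of gene reads per library. Each fold is the ratio of the CPM of both libraries with an exact 95% interval (Clopper-Pearson, from the reads of both libraries), which covers counting error only. The floor of 3 counts corresponded to 0.225 CPM (shLacZ) and 0.283 CPM (shDIS3L2). Mitochondrial genes took 5.45% of the reads in shLacZ and 5.11% in shDIS3L2, and protein-coding genes 88.4% and 88.6%.

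The targeted gene, Dis3l2 (ENSMUSG00000053333), on chromosome 1 between bases 86703808 and 87050095 of GRCm38,, had 316 reads in the control library and 139 in the knockdown library (23.8 and 13.1 CPM), which left 55.2% of the control level (95% interval 44.9 to 67.5%). Dis3l2 was thus lower in the library labelled shDIS3L2, as its label says, and its transcript was still present.

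At d6, many genes of the pluripotent state, of visceral and parietal endoderm and of the primitive streak were lower in shDIS3L2, and many of smooth muscle, fibrillar collagens, other matrix proteins, cardiac transcription factors and some imprinted growth genes were higher. Over 12983 protein-coding genes with at least 1 CPM in 1 of the 2 libraries, 350 were at least 3-fold higher in shDIS3L2 (2.70%) and 549 at least 3-fold lower (4.23%), 6.92% together. The interval of each of the 899 lay wholly to one side of 1. Over all compared genes the log2 fold had a median of 4.06e-05, with an interquartile range from -0.32 to 0.32. At d4 47 genes (0.361%) were higher and 219 (1.68%) lower, 2.04% together, and at d8 737 (5.47%) were higher and 499 (3.71%) lower, 9.18% together, so among these 3 days the lower genes were most at d6 and the order had turned by d8.

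**Figure D1:**
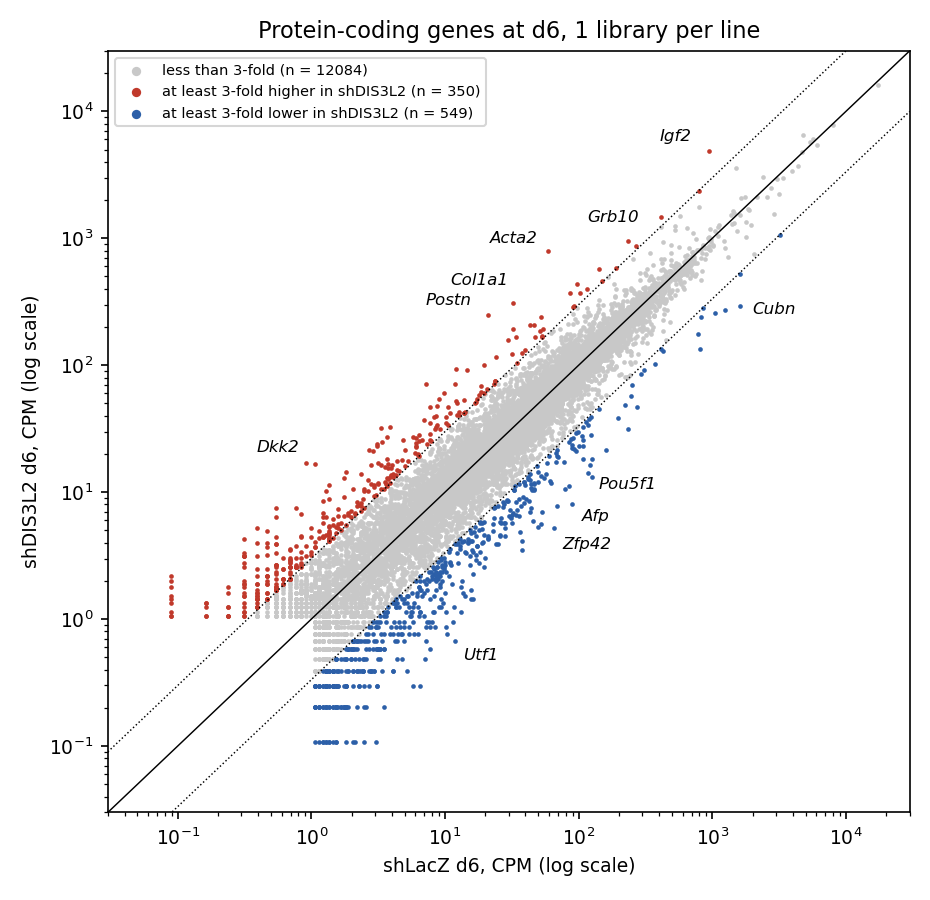
CPM of protein-coding genes in the shDIS3L2 library (y axis) against the shLacZ library (x axis) at d6, both on log scales, 1 point per gene and 1 library per line. Red points are the 350 genes at least 3-fold higher, blue points the 549 at least 3-fold lower, the solid line marks equal levels and the dotted lines 3-fold; Igf2 and Acta2 lie far above the line, and Cubn, Pou5f1, Afp and Utf1 below it.

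The genes lower in shDIS3L2 were present in the control library at a median of 6.18 CPM and in shDIS3L2 at 1.14 CPM. The genes higher went the other way, from a median of 1.37 CPM to 6.23 CPM. Together the lower genes took 2.41% of the reads in shLacZ and 0.606% in shDIS3L2, and the higher genes 0.550% and 2.25%. Among genes with a mean of at least 100 CPM the order was turned, with 27 of 2168 higher and 20 lower, whereas between 1 and 5 CPM 151 of 2158 were higher and 207 lower. Gene length moved with the difference. Of the 3247 genes with the shortest exonic length 84 were higher and 228 lower, with a median log2 fold of -0.10, and of the 3245 longest 108 were higher and 68 lower, with a median of 0.09. The part of length in the result was not tested. At the edge of the criterion, Mest lay just inside among the genes higher and Zfp112 just outside, and among the genes lower Casz1 lay just inside and Galnt3 just outside, all 4 at 3.0-fold when rounded.

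Gene lists are described next by how many of their compared members were at least 3-fold higher or lower. A member had to reach 1 CPM in 1 of the 2 libraries, which a gene high in a single library does more easily, so the counts are descriptions. The pluripotency list had the lowest median of the 50 lists. Of 20 genes, 16 were at least 3-fold lower and 0 higher, with a median log2 fold of -2.76, or -2.67 with genes under 3 counts set at that floor. Pou5f1, the transcription factor OCT4 that holds ESCs undifferentiated, stood at 117 CPM (shLacZ) and 14.2 CPM (shDIS3L2), 8.24-fold lower (6.97 to 9.81). Its level had been 740 CPM (shLacZ) and 886 CPM (shDIS3L2) at d4, so both lines lost most of it between d4 and d6, and shDIS3L2 more. Nanog, which acts with OCT4, was at 43.0 and 6.97 CPM, 6.16-fold lower (4.83 to 7.96). Esrrb, an orphan nuclear receptor of naive ESCs, was 10.9-fold lower (7.79 to 15.6). Utf1, a chromatin protein of ESCs, had the largest fold of all genes lower with at least 10 CPM, at 11.9 and 0.66 CPM, 18.0-fold (8.53 to 45.5). Dppa5a and L1td1, RNA-binding proteins of pluripotent cells, were 7.55-fold (6.21 to 9.25) and 6.93-fold lower (5.96 to 8.09), and Dppa2, which keeps a set of early genes open to expression, 12.1-fold lower (6.41 to 25.8). Of the 4 genes that did not pass, Sox2 stood at 18.2 and 9.05 CPM, Klf5 at 12.7 and 5.18 CPM and Dppa4 at 11.8 and 4.15 CPM. Tet2, an enzyme that oxidizes methylated cytosine and acts in many cell types, was at 19.5 CPM (shLacZ) and 27.1 CPM (shDIS3L2) and alone lay above 0 on the log2 scale.

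Zfp42, or Rex1, a classical marker of naive ESCs, was counted at 65.6 and 5.18 CPM, 12.7-fold lower (9.63 to 16.9). Its promoter is shown because it holds an octamer, ATGCAAAT, the sequence that OCT4 and other POU factors bind. The 250 bases before the RefSeq start at chr8:43307010-43307259, on the minus strand of GRCm38.p6 and printed 5′ to 3′ along the gene, have the match in capitals, 186 to 179 bases before the start and on the opposite strand.
Zfp42 promoter: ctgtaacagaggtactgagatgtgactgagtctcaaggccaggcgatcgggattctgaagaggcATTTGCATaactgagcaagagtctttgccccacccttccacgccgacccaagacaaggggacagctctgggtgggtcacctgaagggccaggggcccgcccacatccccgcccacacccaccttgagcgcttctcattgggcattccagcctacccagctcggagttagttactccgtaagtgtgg
An octamer on either strand stood in 14 of 418 promoters of genes lower at d6 (3.35%), in 6 of 240 of genes higher (2.5%) and in 154 of 10151 of all compared genes with a promoter (1.52%). Of all 32851 RefSeq promoters 1.6% held it. A match describes letters and not binding, and these shares had no test.

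The naive genes did not differ in this way throughout. The median log2 fold of the pluripotency list was -0.05 at d2 and -0.82 at d4, when 2 of 18 were lower, and for d8, d10 and d12 it came to -2.22, -0.99 and -0.48. Dppa5a went through 33.8, 10.6 and 36.4 CPM in shDIS3L2 at d4, d6 and d8 while shLacZ held 57.3, 79.7 and 128 CPM, and at d12 both libraries were close, at 49.7 CPM (shLacZ) and 64.8 CPM (shDIS3L2). In shDIS3L2 Pou5f1 stood at 18.5, 41.6 and 86.2 CPM at d8, d10 and d12, so that d6 had its lowest level. Among the 549 genes lower at d6, 243 (44.3%) had their lowest level of the 7 days in shDIS3L2 at d6, against 1237 (9.53%) of all compared genes. The d6 libraries chose these genes, so this count is a description.

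**Figure D2:**
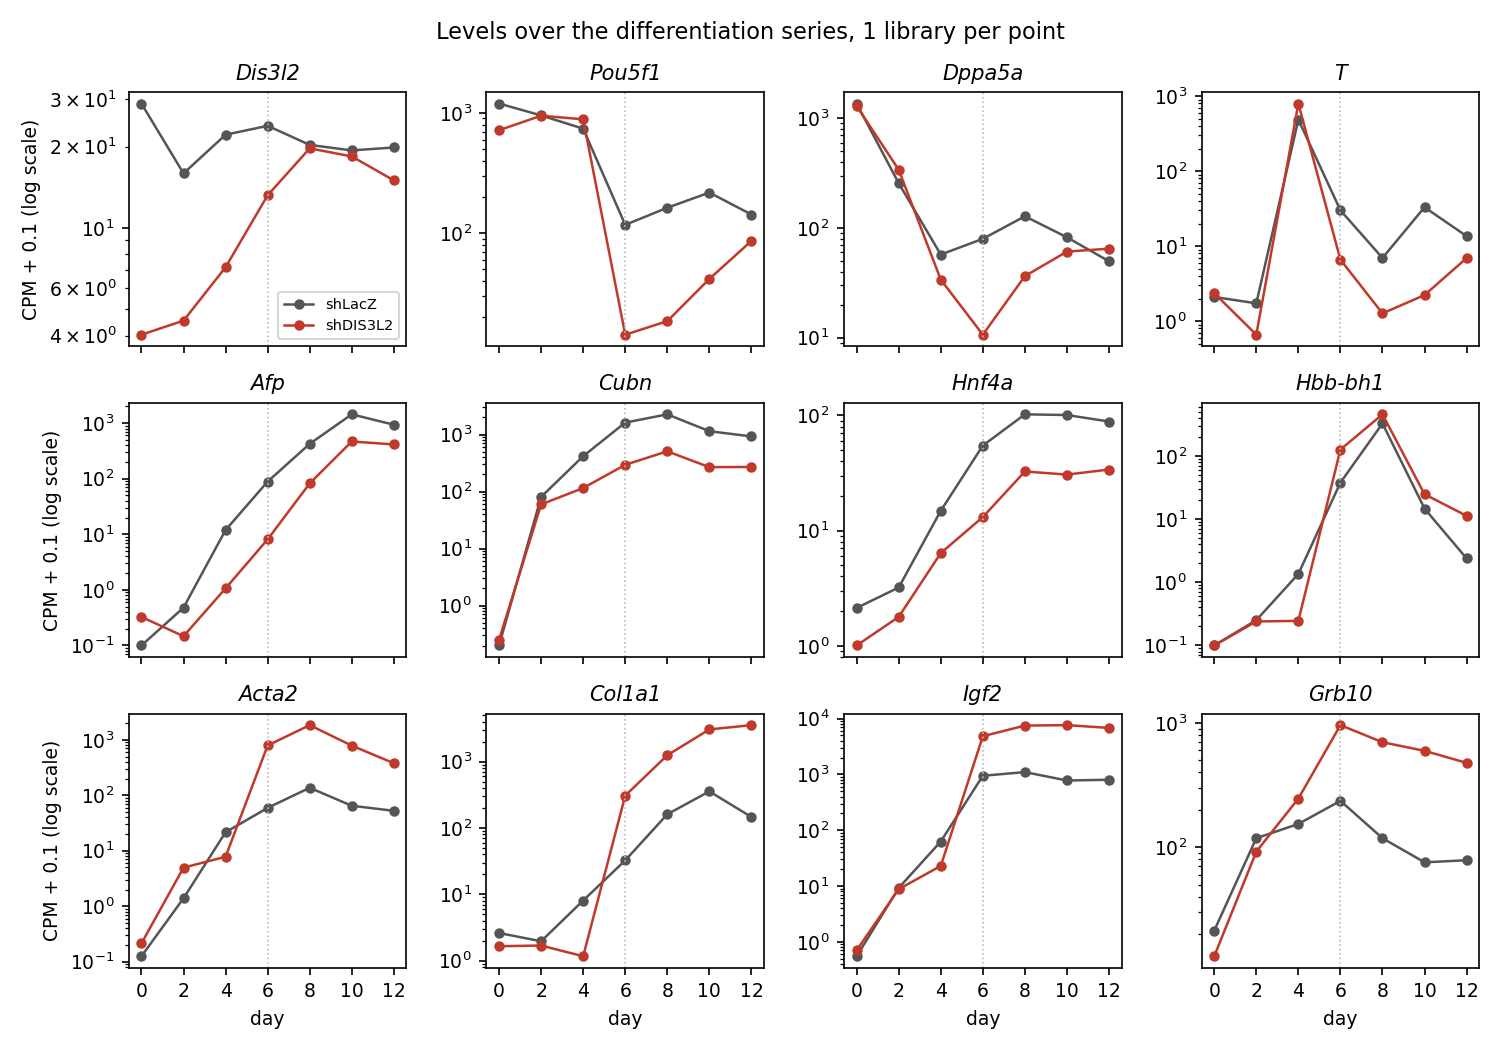
CPM plus 0.1 on log scales (y axis) against day (x axis) for 12 genes in shLacZ (grey) and shDIS3L2 (red), each point 1 library and the dotted line d6. Pou5f1 and Dppa5a have their lowest shDIS3L2 level at d6, T crosses between d4 and d6, and Acta2, Col1a1 and Igf2 lie below shLacZ at d4 and above it from d6 on.

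Genes of the primed epiblast, the state that follows naive pluripotency and precedes gastrulation, were lower too, 6 of 12, with 0 higher and a median of -1.59. Dnmt3l, a cofactor of DNA methylation, was at 52.1 and 5.56 CPM, 9.37-fold lower (7.17 to 12.4), and Trh, which encodes the precursor of thyrotropin-releasing hormone, at 234 and 31.6 CPM, 7.41-fold lower (6.62 to 8.32). Fgf5, the standard marker of this state, stood at 7.37 and 0.943 CPM, 7.82-fold lower (4.07 to 16.8), and Otx2, a homeodomain factor of epiblast and forebrain, was 4.86-fold lower (3.02 to 8.24). Dnmt3b, a methyltransferase, was at 240 and 106 CPM and did not pass, and Dnmt3a was at 97.0 and 95.9 CPM.

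The primitive streak list had turned between d4 and d6. At d4 its median log2 fold was 0.93 with 2 genes at least 3-fold higher, and at d6 it was -2.20, with 6 of 11 genes lower and 0 higher, while 5 of the 16 listed were too low to compare. T, or Brachyury, which mesoderm needs to form, was at 486 CPM (shLacZ) and 795 CPM (shDIS3L2) at d4 and at 29.9 and 6.50 CPM at d6, 4.60-fold lower (3.55 to 6.03). Eomes, a T-box factor of mesendoderm, was at 300 and 571 CPM at d4 and at 37.0 and 7.73 CPM at d6, 4.79-fold lower (3.78 to 6.12). The homeodomain factor Mixl1 went from 161 and 329 CPM to 19.2 and 4.05 CPM, 4.75-fold lower (3.43 to 6.72). These 3 factors thus stood higher in shDIS3L2 at d4, their highest day in both lines, and lower at d6. Fgf8, Wnt8a and Mesp1 were lower from 46, 33 and 17 reads in shLacZ to 2, 3 and 1 in shDIS3L2. Members that mark the posterior end and its mesoderm did not pass, with Cdx2 at 61.5 and 55.3 CPM, Nkx1-2 at 19 and 26.4, Wnt3 at 18.6 and 24.6 and Evx1 at 16.0 and 17.7. The median rested on weakly expressed genes, being -0.15 over members with at least 5 CPM.

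Nodal signalling, which maintains the epiblast and patterns the streak, had 4 of 11 genes lower and 0 higher, with a median of -0.32. These were the co-receptor Tdgf1, at 52.9 and 6.97 CPM (7.59-fold, 5.96 to 9.78), the feedback inhibitors Lefty2 (9.26-fold, 5.72 to 15.9) and Lefty1 (8.51-fold, 4.30 to 19.2), and the ligand Gdf3 (13.7-fold, 6.74 to 32.3). The mediators Smad2, at 76.5 and 87.6 CPM, Smad3, at 69.6 and 118 CPM, and Foxh1, at 76.2 and 61.1 CPM, did not pass. Tdgf1, like T, had been higher in shDIS3L2 at d4, at 855 CPM against 459 CPM.

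Visceral endoderm genes were lower across both of their lists. Of 14 compared genes for the surface and uptake machinery 12 were at least 3-fold lower, and of 12 compared genes for secreted proteins, from 24 listed, 8 were. In both lists 0 were higher, and the medians were -2.17 and -1.77. Cubn and Amn form a receptor that takes up proteins together with Lrp2, and Dab2 is the endocytic adaptor. Cubn, the receptor cubilin, was at 1618 CPM (shLacZ) and 295 CPM (shDIS3L2), 5.49-fold lower (5.29 to 5.70). Lrp2, megalin, was at 1240 and 272 CPM, 4.56-fold lower (4.38 to 4.74), and the anchor protein Amn at 36.4 and 4.81 CPM, 7.57-fold lower (5.66 to 10.3). Dab2 was at 777 and 176 CPM, 4.42-fold lower (4.21 to 4.65). The lysosomal protease Ctsh, the folate receptor Folr1 and the calcium-binding S100g were 3.62-fold (3.39 to 3.87), 4.67-fold (4.07 to 5.36) and 7.55-fold lower (6.25 to 9.20). Spink1, a protease inhibitor, at 229 and 129 CPM, and the transporter Slc13a4, at 9.92 and 5.94 CPM, did not pass.

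The secreted proteins followed. Apob and Mttp, which make up and load lipoprotein particles, were 5.96-fold (5.64 to 6.30) and 3.15-fold lower (2.83 to 3.52), Apob from 806 to 135 CPM. Rbp4, the plasma carrier of retinol, was 4.36-fold lower (3.56 to 5.38). Ttr, transthyretin, stood at 150 CPM (shLacZ) and 75.9 CPM (shDIS3L2) and did not pass, and all 12 compared genes lay below 0. At d4 the lists for surface and secreted proteins already had medians of -1.35 and -1.40, with 4 of 13 and 4 of 9 members lower, and at d8 of -1.72 and -1.85. Summed over the surface list, the level in shLacZ was 1424 CPM at d4, 4595 at d6 and 6808 at d8, and in shDIS3L2 it was 496, 1046 and 1915 CPM. Visceral endoderm transcripts thus increased in both lines and stayed lower in shDIS3L2 on each of these days.

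Of the transcription factors of endoderm, 2 of 11 were lower and 0 higher. Among them was Hnf4a, which visceral endoderm needs for its secretory program, at 54.6 and 13.0 CPM (4.20-fold, 3.50 to 5.08). The median of the list was -0.96. Gata4 stood at 192 and 98.5 CPM, Sox17 at 45.2 and 18.5 CPM and Sox7 at 43.5 and 18.9 CPM, and none passed. Gata6, which specifies primitive endoderm and is also expressed in cardiac mesoderm, was at 60.9 and 60.8 CPM.

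Afp, alpha-fetoprotein, the leading serum protein of visceral endoderm, was at 88.8 CPM (shLacZ) and 8.01 CPM (shDIS3L2), 11.1-fold lower (8.89 to 14). At d8 it reached 425 and 82.3 CPM and at d10 1440.4 and 468 CPM, so that its level grew in both lines.

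Parietal endoderm genes had 5 of 13 members lower and 0 higher, with a median of -0.80, and 4 of the 13 lay above 0. Col4a1 and Col4a2, the chains of the basement membrane collagen, were at 3212 and 1052 CPM (3.05-fold lower, 2.99 to 3.12) and at 1602 and 519 CPM (3.09-fold lower, 3.0 to 3.18). Lama1, the laminin chain of early basement membranes, was at 830 and 238 CPM, 3.49-fold lower (3.34 to 3.65). Pth1r, a hormone receptor, was 3.36-fold lower (2.95 to 3.84) and Srgn, a proteoglycan core, 5.96-fold lower (5.12 to 6.97). The laminin chains Lamb1 and Lamc1, made by many cells, were at 819 and 469 CPM and 832 and 552 CPM and did not pass. Above 0, and not past 3-fold either, were the basement membrane linker Nid1, at 117 and 265 CPM, the keratin Krt8, at 366 and 449 CPM, Thbd, with 6 and 14 reads, and Plat. Col4a1 and Col4a2 lie on chromosome 8, whose median was below that of the other chromosomes, and so does Zfp42.

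Epithelial genes had 13 of 14 members below 0 and 2 at least 3-fold lower, with a median of -0.98. Cldn6, a tight junction protein of epiblast and endoderm, was at 429 and 130 CPM, 3.30-fold lower (3.11 to 3.51), and Cdh1, E-cadherin, at 350 and 175 CPM did not pass. In RNA of whole EBs, fewer cells of a kind and less RNA per cell cannot be told apart for any of these lists.

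**Figure D3:**
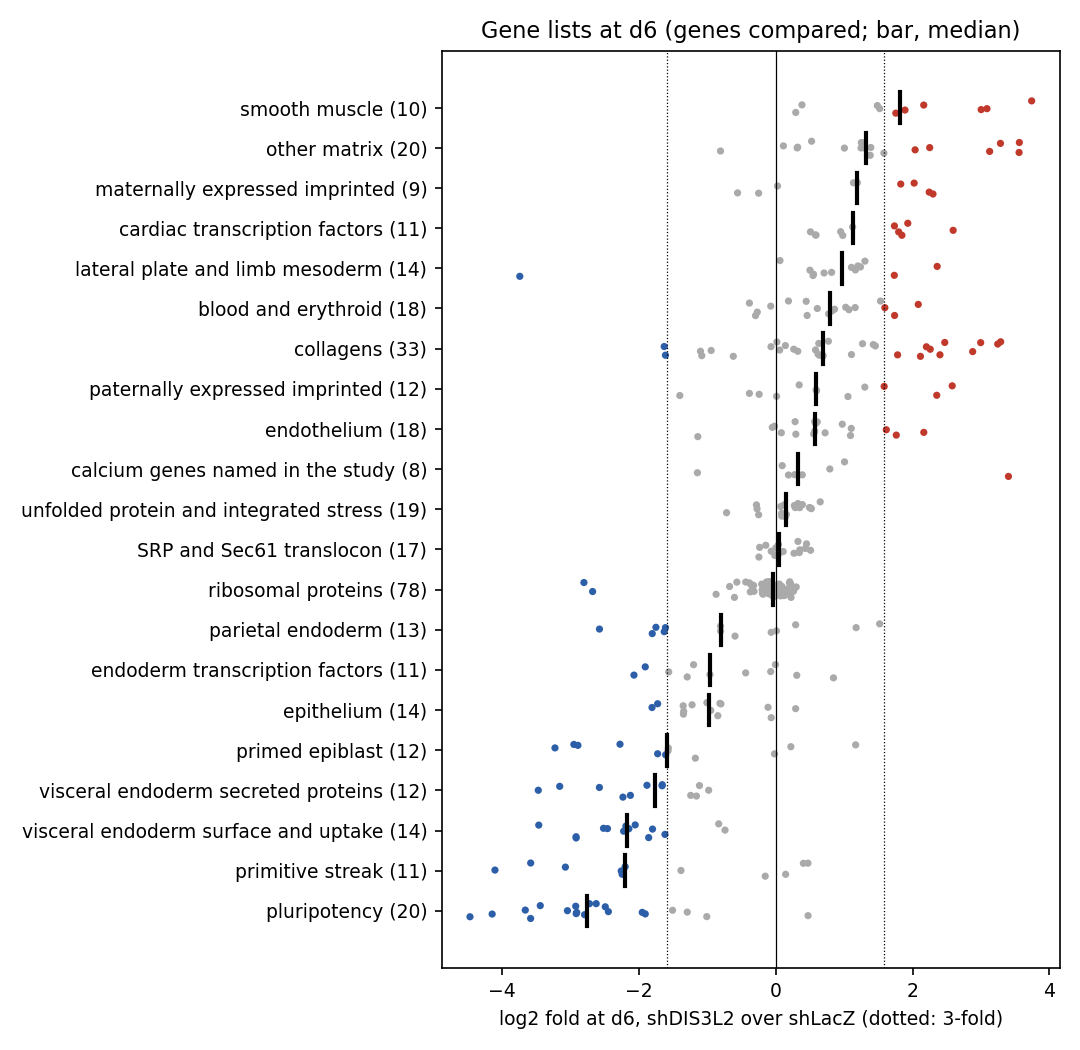
Log2 fold at d6 of shDIS3L2 over shLacZ (x axis) for each compared member of 21 gene lists (rows, with the number compared), 1 point per gene. Black bars are medians and dotted lines 3-fold; members of the pluripotency, streak and visceral endoderm lists lie mostly to the left, smooth muscle and matrix members to the right, and ribosomal, Sec61 and stress genes near 0 except 2 ribosomal protein genes.

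Smooth muscle genes had the highest median of the lists, 1.82, with 6 of 10 at least 3-fold higher and 0 lower. Acta2, smooth muscle actin, which also marks activated fibroblasts and early cardiac mesoderm, was at 59.2 CPM in the control and 791 CPM in the knockdown library, 13.4-fold higher (12.4 to 14.4). Tagln, an actin-binding protein, was at 46.6 and 209 CPM, 4.48-fold higher (4.10 to 4.91), and Cnn1, calponin, at 3.76 and 12.7 CPM, 3.39-fold higher (2.43 to 4.78). Lmod1, Actg2 and Myl9 were higher as well, Lmod1 and Actg2 from 5 and 9 reads in shLacZ. Tpm2 was at 22.4 and 62.8 CPM, 2.80-fold (2.44 to 3.22), and did not pass. Desmin, Des, was at 9.02 and 11.8 CPM. At d4 0 of 8 members had been higher, with Acta2 at 21.5 and 7.68 CPM and Tagln at 126 and 72.3 CPM, and at d8 9 of 10 were.

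Myl9, the regulatory light chain of smooth muscle myosin, was at 3.83 and 32.7 CPM, 8.53-fold higher (6.34 to 11.7). Its promoter is shown because it holds a CArG box, the element bound by serum response factor, which drives contractile genes. The 250 bases before the start at chr2:156775214-156775463, plus strand of GRCm38.p6, have the match in capitals, 161 to 152 bases before the start.
Myl9 promoter: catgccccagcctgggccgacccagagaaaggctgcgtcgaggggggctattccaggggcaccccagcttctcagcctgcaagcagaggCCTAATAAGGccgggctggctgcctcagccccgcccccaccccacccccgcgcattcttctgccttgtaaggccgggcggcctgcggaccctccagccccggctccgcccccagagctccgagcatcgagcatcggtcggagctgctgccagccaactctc
A CArG box stood in 9 of 240 promoters of genes higher (3.75%), Actc1, Ldb3, Lama2 and Igf2 among them. On the other side it stood in 6 of 418 of genes lower (1.44%), Vil1, Cited1 and Mesp1 among them. The share was 1.46% of all compared genes and 1.47% of all RefSeq promoters. The box was searched only as CC, 6 bases of A or T, and GG, so elements that depart from this pattern were not counted. The promoters of the smooth muscle genes Acta2 and Lmod1 had no match to it, and these shares had no test.

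Of 33 collagens 10 were higher, the fibrillar types I, III and V among them, and 2, Col4a1 and Col4a2, lower, with a median of 0.69. Col1a1, the main chain of type I collagen, was at 32.3 and 306 CPM, 9.48-fold higher (8.57 to 10.5), and its partner Col1a2 at 7.22 and 70.6 CPM, 9.78-fold higher (7.90 to 12.2). Col3a1, which forms mixed fibrils with type I, was at 43.4 and 208 CPM, 4.79-fold higher (4.37 to 5.26), and Col5a1, which starts fibrils, at 86.1 and 373 CPM, 4.34-fold higher (4.06 to 4.63). Col12a1 on the fibril surface and the microfibrillar Col6a3 were 4.61-fold and 7.38-fold higher. The chains Col4a1 and Col4a2 of basement membranes thus differed in the opposite direction to these fibril chains. Other fibrillar collagens did not pass, with log2 folds of 1.43 for Col11a1, 1.11 for Col24a1, 0.14 for Col2a1, -0.62 for Col11a2 and -0.94 for Col27a1. Col18a1, at 236 and 284 CPM, and Col4a5, at 35.2 and 60.0 CPM, did not pass.

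Of 20 other matrix genes 6 were higher and 0 lower, with a median of 1.32. Postn, periostin, a matricellular protein of cardiac cushion and fibroblasts, was at 21 and 248 CPM, 11.8-fold higher (10.4 to 13.4). Tenascin C, Tnc, was 4.76-fold (3.85 to 5.93) and the crosslinking enzyme Loxl1 4.12-fold higher (3.01 to 5.71), and the small proteoglycans Lum and Dcn were higher from 10 and 4 reads in shLacZ. Vcan, versican, at 410 and 1228 CPM, lay just outside at 2.99-fold (2.90 to 3.09), and fibronectin, Fn1, was at 1498 and 3558 CPM, 2.38-fold (2.33 to 2.42). Sparc, made by parietal endoderm and by fibroblasts, was lower, at 1788 and 1023 CPM, and did not pass. Among the 10 laminins, Lama2 and Lamc3 were higher, with 28 and 16 reads in shDIS3L2, and Lama1 lower.

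Genes that mark the shift from epithelium to mesenchyme all lay above 0, 10 of 10, with a median of 1.19, but Tgfbi, a matrix protein induced by TGF-beta, was the one past 3-fold, at 24.0 and 117 CPM (4.86-fold, 4.30 to 5.52). Vimentin, Vim, was at 488 and 770 CPM and N-cadherin, Cdh2, at 110 and 242 CPM. On the mesenchyme surface list 3 of 11 were higher. Cd44, a hyaluronan receptor, was at 52.6 and 242 CPM, 4.59-fold (4.22 to 5.0), Dlk1, a Notch-related surface protein, at 11.9 and 71.1 CPM, 5.98-fold (5.03 to 7.15), and Vcam1 went from 4 to 45 reads. Pdgfrb was at 55.7 and 153 CPM and Pdgfra at 204 and 174 CPM, and neither passed.

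Lateral plate and limb mesoderm had 2 of 14 genes higher, 1 lower and a median of 0.96. Tbx4, a T-box factor of hindlimb and allantois, was at 19.6 and 101 CPM, 5.14-fold higher (4.48 to 5.90), and Twist2 at 5.26 and 17.5 CPM, 3.33-fold higher (2.52 to 4.45). Lmx1b went from 19 reads to 1. Tbx3, at 150 and 157 CPM, and Msx1, Bmp4 and Msx2, with folds between 1.46 and 1.63, did not pass.

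Cardiac transcription factors all lay above 0, with 5 of 11 higher, 0 lower and a median of 1.12. Tbx20, needed for heart chamber growth, was at 51.6 and 185 CPM, 3.59-fold higher (3.29 to 3.93), and Tbx2 at 7.74 and 25.8 CPM, 3.34-fold higher (2.65 to 4.23). Gata5, Tbx5 and Myocd were higher at levels of 4.05 CPM or less. Hand1, expressed in early extraembryonic and cardiac mesoderm, was at 151 and 299 CPM, and Hand2, Hey2 and Isl1 did not pass. Sarcomere genes were weak at d6, and 4 of 16 were higher, Tnni1, Actc1, Tnnt2 and Ldb3, each at 13.9 CPM or less. Mybpc3, the myosin-binding protein C of heart, was alone lower, at 10.1 and 0.848 CPM, 12.0-fold (6.12 to 26.7), and had come to 40.2 and 32.7 CPM by d8.

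Blood genes had 3 of 18 members higher and 0 lower, with a median of 0.80. Hbb-bh1, the embryonic beta-like globin of primitive red cells, was at 37.7 and 126 CPM, 3.34-fold higher (3.01 to 3.70), while at d8 it reached 325 CPM (shLacZ) and 453 CPM (shDIS3L2). Reads of the beta-globin genes can be split between copies of similar sequence, so each of their values is uncertain. Runx1 and Tal1, which found the blood lineage, were at 22.7 and 46.2 CPM and at 17.3 and 29.6 CPM and did not pass. In endothelium 3 of 18 were higher, Tek, the angiopoietin receptor, at 23.2 and 71.3 CPM (3.07-fold, 2.68 to 3.51), and Icam2 and Emcn from 13 and 8 reads, with a median of 0.58. Angpt1, the ligand of Tek, was at 3.31 and 31.8 CPM, 9.60-fold higher (7.0 to 13.5). The VEGF receptors Kdr, at 109 and 134 CPM, and Flt1, at 57.8 and 70.4 CPM, did not pass. At d8 the endothelial median was -0.22 and the blood median 0.20, while those of other matrix and smooth muscle were 2.24 and 3.4. The blood median was 0.59 at d10 and 2.28 at d12, when 12 of 19 genes were higher.

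In most lists of other tissues few members could be compared, so the counts past 3-fold are small. Over all compared genes 6.92% were past 3-fold in either direction. Of 23 neural genes 6 could be compared, with 1 higher and 1 lower. Tubb3, a tubulin of neurons, was at 12.0 and 93.5 CPM, 7.77-fold higher (6.57 to 9.25), against 21.2 CPM in shDIS3L2 at d4 and 17.0 CPM at d8, so that it was lower on both neighbouring days. Onecut1 went from 14 to 3 reads. The neural crest list (6 compared, 0 higher, 1 lower), paraxial mesoderm (6 compared, 1 and 1), macrophages (4 compared, 1 and 1), trophoblast (6 compared, 1 and 1) and germ cells (7 compared, 0 and 2) also had few compared members. Plac1, a placental membrane protein, was at 18.6 and 68.2 CPM, 3.66-fold higher (3.16 to 4.25). In the kidney and intermediate mesoderm list 2 of 13 were lower, Cited1, which marks nephron progenitors but also other tissues, at 108 and 32.5 CPM (3.33-fold, 2.96 to 3.76), and Nphs1 from 20 reads to 1. Sall1 was at 126 and 46.6 CPM, 2.71-fold lower (2.45 to 3.0), and did not pass. Osr1, whose reporter the line carries, was under 1 CPM in both libraries, at 0.301 and 0.377 CPM.

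Imprinted genes, which are expressed from 1 parental copy and include regulators of fetal growth, had members at least 3-fold higher in both parental classes. Among 12 genes expressed from the father 3 were higher and 0 lower, with a median of 0.59, and among 9 expressed from the mother 4 and 0, with a median of 1.19. In these lists 3 and 2 genes lay below 0, the noncoding Peg13 lowest at a log2 fold of -1.40. Igf2, the fetal growth factor expressed from the father, was at 946 CPM (shLacZ) and 4835 CPM (shDIS3L2), 5.11-fold higher (5.01 to 5.21). Igf2r, the receptor that clears it and is expressed from the mother, was at 415 and 1475 CPM, 3.55-fold higher (3.44 to 3.66). Slc22a18, a transporter, went from 7 to 27 reads. Grb10, a growth-restraining adaptor, was at 236 and 959 CPM, 4.07-fold higher (3.91 to 4.24), and Cdkn1c, an inhibitor of the cell cycle, at 34.0 and 168 CPM, 4.92-fold higher (4.44 to 5.47). Mest was at 791 and 2376 CPM, 3.0-fold (2.93 to 3.07). Peg3, at 2376 and 3016 CPM, and Plagl1, at 38.3 and 94.6 CPM, did not pass. At d4 Igf2 had been lower in shDIS3L2, at 62.7 and 22.8 CPM.

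Igf2 shares its imprinting cluster with the noncoding H19, which was at 3189 and 7013 CPM, 2.20-fold (2.17 to 2.23), and Dlk1 shares its own with the noncoding Meg3, which was at 551 and 464 CPM, 1.19-fold lower (1.15 to 1.23). Of these pairs, both genes of the first thus had more reads in shDIS3L2, and Dlk1 but not Meg3 of the second. Zim1, an imprinted zinc finger gene next to Peg3 that was named after its values were seen, was at 29.8 and 157 CPM, 5.25-fold higher (4.71 to 5.88).

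Among signalling pathways, Wnt ligands and inhibitors had 3 of 23 genes higher and 2 lower, with a median of 0.27. The inhibitor Dkk2 had the largest fold of the genes higher with at least 10 CPM, at 0.902 and 17.1 CPM, 18.9-fold (10.6 to 37.3), and Dkk3 and the ligand Wnt2 were 6.09-fold (4.91 to 7.61) and 5.93-fold higher (4.14 to 8.70). The inhibitor Sfrp5 went from 29 to 4 reads and the ligand Wnt7b from 35 to 7. Wnt5a was at 83.9 and 211 CPM, 2.52-fold, and Axin2, which reads out Wnt activity, at 56.1 and 54.0 CPM. The BMP list had 1 of 19 higher and 1 lower, the ligand Bmp6, and the FGF list 1 of 15 lower, Fgf17 from 23 reads to 2. The retinoic acid, Hedgehog and Notch lists had 0 of 13, 0 of 8 and 0 of 11 past 3-fold in either direction. Of 31 Hox genes, which give position along the body, 26 lay above 0 and 1, Hoxa5 from 21 reads to 3, was lower. Of 24 clustered protocadherins 5 were higher and 0 lower, with a median of 0.94. These cell surface genes share long stretches of sequence, so each value is uncertain.

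Lists closer to the known biochemistry of DIS3L2 are described next, beside 6.92% of all compared genes past 3-fold. Well-expressed genes passed less often, with 48 of 5309 higher and 84 lower at a mean of 20 to 100 CPM. A count of 0 in a short list, here or elsewhere, thus does not set that list apart. The translocon list, with the signal recognition particle proteins and Sec61, had 0 of 17 past 3-fold, with a median of 0.05 and all values between -0.24 and 0.51. The unfolded protein and integrated stress list had 0 of 19, with a median of 0.16, and the chaperone Hspa5 was at 750 and 983 CPM. Among genes for calcium handling in the ER 0 of 15 passed, with a median of -0.41 that turned to 0.10 over genes with at least 5 CPM, and calreticulin, Calr, was at 1534 and 1146 CPM. Of the 8 calcium genes that the study names, a list it chose on this series, Rgn was higher, from 6 to 52 reads, and Pkd1, polycystin 1, at 43.2 and 86.9 CPM, did not pass. The Lin28 and uridylation list had 0 of 10, with Lin28a, the let-7 inhibitor, at 390 and 320 CPM and the uridylating enzyme Tut4 at 140 and 162 CPM.

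Ribosomal protein genes had 2 of 78 lower, the paralogs Rpl10l (71 and 8 reads) and Rpl39l (17 and 2 reads), which are uncertain because their sequences resemble the main copies, and a median of -0.04. Proliferation genes (0 of 16, median -0.20), hypoxia and glycolysis (0 of 19, median -0.29), lipid and cholesterol synthesis (0 of 13, median 0.58), immediate early and heat shock genes (0 of 11, median -0.45), mitochondrially encoded genes (0 of 13, median -0.14) and histones (0 of 7, median -0.77) had no member past 3-fold. Histone transcripts mostly lack a polyA tail, and the libraries were made from polyA RNA. Of 8 cell cycle inhibitors Cdkn1c alone passed, with Cdkn1a at 163 and 145 CPM.

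Of the remaining genes with the largest folds, Fxyd2 is a member of the visceral endoderm surface and uptake list and was counted there. The others belong to none of the lists. Higher were Pgm5, an actin-associated protein, at 1.05 and 16.8 CPM (15.9-fold, 9.26 to 29.8), Bves, a membrane protein of muscle (7.83-fold, 5.61 to 11.2), Ccn4, a Wnt-induced matricellular protein (7.91-fold, 5.54 to 11.6), Ptgs2, the inducible cyclooxygenase (7.52-fold, 4.82 to 12.3), and Mrvi1, Olfml2b and Dpysl4, between 7.99-fold and 8.43-fold. Lower were Fxyd2, a subunit of the sodium pump, at 15.7 and 1.41 CPM (11.1-fold, 6.58 to 20.2), Tcf23 (11.6-fold, 6.45 to 22.8), Eva1a (9.45-fold) and Serpinb6c (9.37-fold). Mt2, a metallothionein that binds zinc, was at 125 and 13.1 CPM, 9.55-fold lower (8.03 to 11.4). Its neighbour Mt1, named after its values were seen, was at 122 and 16.3 CPM, 7.48-fold lower (6.39 to 8.80). Triml1 and Triml2, neighbours of Zfp42, were 11.4-fold (6.74 to 20.7) and 9.38-fold lower (7.14 to 12.6). Mt1, Mt2, Triml1, Triml2 and Zfp42 lie on chromosome 8.

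Chromosomes 8 and 16 stood apart. The median log2 fold of the 692 compared genes of chromosome 8 was -0.36 at d6, with 9 higher and 40 lower. It was -0.47 at d0, -0.28 at d2, -0.28 at d4 and -0.29 at d8. Chromosome 16, which holds Dppa2, had a median of -0.15 at d6, -0.47 at d0, -0.29 at d2, -0.22 at d4 and -0.10 at d8. The other chromosomes lay between -0.05 and 0.11 at d6. The shifts of chromosomes 8 and 16 were thus present from d0 on, when the median of all chromosomes was -0.25 or lower. Their part in the values of the genes on them was not tested. Without chromosome 8, left out after its median was seen, 341 genes were higher and 509 lower of 12291. On this chromosome the log2 fold was -3.66 for Zfp42 and -1.61 for Col4a1.

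**Figure D4:**
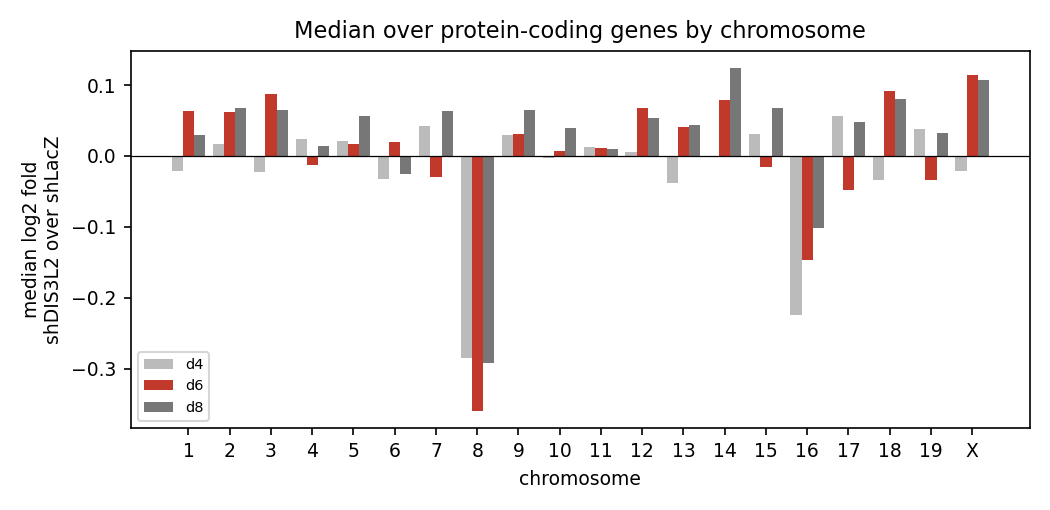
Median log2 fold of shDIS3L2 over shLacZ (y axis) over compared protein-coding genes of each chromosome (x axis) at d4 (light grey), d6 (red) and d8 (dark grey), 1 library per line and day. Chromosome 8 lies between -0.36 and -0.28 on each day, chromosome 16 between -0.10 and -0.22, and the others near 0.

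The d4 and d8 libraries took no part in choosing the 899 genes. Dis3l2 itself was at 22.0 CPM (shLacZ) and 7.05 CPM (shDIS3L2) at d4 and at 20.2 and 19.6 CPM at d8, so the knockdown was no longer seen in the transcript at d8. The d4 libraries held 7178712 (shLacZ) and 20695661 reads (shDIS3L2). Of the 350 genes higher at d6, 7 were at least 3-fold higher at d4 and 16 lower, and 186 (53.1%) were higher at d8 and 2 lower. Of the 549 lower, 58 (10.6%) were lower at d4 and 1 higher, and 269 (49.0%) were lower at d8 and 3 higher. The 7 and 186 genes made up 14.9% and 25.2% of all genes higher at d4 and d8, and the 58 and 269 genes 26.5% and 53.9% of all lower. The medians of the genes that could be compared were -0.16 (higher) and -0.76 (lower) at d4 and 1.81 and -1.61 at d8. Lower genes had thus partly parted by d4, and the higher genes had not. By d12 152 (43.4%) of the genes higher were still higher and 51 (9.29%) of the genes lower still lower, with medians of 1.49 and -0.73.

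**Figure D5:**
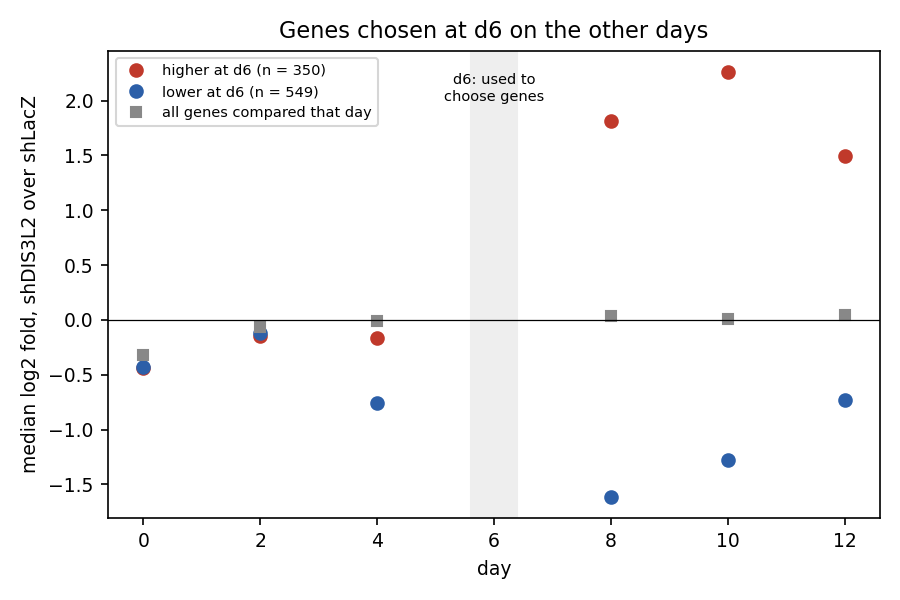
Median log2 fold of shDIS3L2 over shLacZ (y axis) on the other days (x axis) for the 350 genes higher at d6 (red), the 549 lower (blue) and all genes compared that day (grey squares), 1 library per line and day. The red points lie below 0 through d4 and between 1.49 and 2.26 from d8 on, and the blue points are lowest at d8, at -1.61, and return toward 0 by d12.

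Within each line, the steps from d4 differed. From d4 to d6, 250 of the 350 genes higher gained at least 3-fold in shDIS3L2 and 101 in shLacZ, and of the 549 lower 227 lost at least 3-fold in shDIS3L2 and 59 in shLacZ, while 125 gained in shLacZ and 47 in shDIS3L2. Of all compared genes, 8.78% gained and 5.31% lost at least 3-fold over these days in shDIS3L2, and 5.50% and 2.95% in shLacZ. Both d6 libraries enter these counts and chose the genes. From d4 to d8, in libraries that did not choose them, the genes higher gained a median log2 of 2.96 in shDIS3L2 and 1.13 in shLacZ, and the genes lower gained 0.17 and 0.82. Of the 549 lower, 198 (36.1%) were genes that gained at least 3-fold from d4 to d8 in the control line, as Afp and Cubn did, and 62 (11.3%) were genes that lost. Of the 350 higher, 146 (41.7%) gained and 26 (7.43%) lost in the control line, and of all compared genes 8.29% and 3.78%. Genes that changed with time in the control line were thus more frequent on both sides than among all genes. These shares were not matched for expression level, and weak genes pass 3-fold more easily by counting error. In shLacZ at d4 the median log2 of CPM plus 1 was 1.34 for the genes higher, 2.65 for the genes lower and 4.79 for all compared genes.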

How the data were processed

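Poly(A) RNA of EBs was sequenced in 14 libraries, 1 per line and day. Per the study's methods the authors aligned reads with Subread to GRCm38 with Ensembl 88 and deposited featureCounts counts for 50686 genes, with no normalization and replicates not pooled. The deposited CPM table, made by the authors with edgeR over 16181 genes, matched the counts plus 0.25, and was used as an alternative. Whether counting used strand is not given in the sources used here, so reads of antisense and overlapping genes cannot be told apart. Of the IDs, 50462 matched GENCODE M21, which gave 21939 protein-coding genes.

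CPM was computed here over all genes. A gene was compared at 1 CPM or more in 1 of the 2 libraries, and was called at 3-fold, a threshold chosen here, after a prior count of 0.25 scaled to depth. With 1 library a side no test was possible, and intervals describe counting error alone. The study's methods name no molecular identifiers, so PCR copies could not be told from other reads, and the intervals do not allow for them. Other scalings came from edgeR 4.0.16 and DESeq2 1.42.0 in R 4.3.3. Python 3.11.15 with pandas 2.3.3, scipy 1.17.1 and matplotlib 3.10.9 did the rest, and the scripts were tested on simulated data. The alternatives tried were the scaling, the fold, the CPM minimum, the gene types, the prior count, the deposited CPM and leaving out chromosome 8.

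The comparison and the 50 gene lists were chosen with earlier results of these data known. The text names Dis3l2, the 15 genes with the largest fold on each side among those called with at least 10 CPM, and in each list up to 6 called and 4 other members. Nanog, Amn, Col12a1, Col6a3, Osr1, Mt1, Zim1, the genes of the closing section, the motifs, the promoters and the alternative without chromosome 8 were chosen after values were seen. A few items are not reported here. Promoters are the 250 bases upstream of RefSeq starts (GRCm38.p6), both strands searched, and a gene with several starts counted once.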

Additional observations from a re-analysis of the deposited data

Results flagged for a closer look

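Of the genes named for their level or fold, 15 were at least 3-fold higher in shDIS3L2 at d6 and at least 3-fold lower at d4, and 1 had the opposite pattern. They are given because both days point opposite ways, and the difference between the days was not tested, with 1 library per line and day. The log2 folds at d6 of the matrix and mesenchyme genes among them were 3.56 for Postn, 3.28 for Lum, 3.24 for Col1a1, 2.26 for Col3a1, 2.25 for Tnc, 2.98 for Ccn4, 1.6 for Ccdc80, 2.18 for Cd248 and 2.12 for Adam12. The others were 2.10 for Sox6, 2.02 for Pgf, 1.87 for Plac1, 1.85 for Capn6, 1.74 for Hbb-bh1 and 1.67 for Mmp9. Their d4 levels were low, and the d4 libraries differed in depth, with 7178712 reads in shLacZ and 20695661 in shDIS3L2. Col3a1 was at 12.3 and 0.870 CPM at d4, Postn at 5.85 and 0.242, Col1a1 at 7.94 and 1.06, and Capn6 at 11.4 and 3.38. Mesp1, a factor of the earliest cardiac and head mesoderm, had a log2 fold of -3.58 at d6, on 17 reads and 1, and stood at 16.7 and 57.7 CPM at d4.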

How the results depend on the processing

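More genes were lower than higher in each setting tried. The counts moved by over 1.5 times with the fold and the CPM minimum. At 2-fold 905 genes were higher and 1080 lower, at 4-fold 167 and 335, with no minimum 1075 and 1821, at a minimum of 5 CPM 188 and 294, and at 10 CPM 146 and 203. TMM scaling gave 329 and 581, DESeq2 size factors 328 and 581, and the deposited CPM 366 and 588. No minimum at d4 raised the genes higher on both days from 7 to 25. Of the list medians, none changed sign under TMM or DESeq2 scaling. At a minimum of 5 CPM the primitive streak had -0.15, collagens 1.35 and laminins -0.49, and the neural (1.13), macrophage (0.44), trophoblast (-0.15) and ER calcium (0.10) medians changed sign. The cause was not tested. No paired analysis was possible because each line had 1 library per day, and leaving out a replicate would leave no library on a side.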

Other observations

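Apart from members of the imprinted lists such as H19, Meg3 and Peg13, noncoding transcripts were not among the genes compared above. Over 15588 genes of every type with at least 1 CPM, 409 were at least 3-fold higher and 614 lower. Of 183 lincRNAs with at least 1 CPM, 11 were at least 3-fold higher and 16 lower. Platr10, a noncoding RNA named for its tie to pluripotency, was at 12.5 CPM (shLacZ) and 1.41 CPM (shDIS3L2), and Lncenc1, a noncoding RNA of ESCs, at 24.4 and 5.09 CPM. Dubr was at 6.31 and 19.1 CPM. Of 1789 processed pseudogenes 23 were higher and 18 lower. Among pseudogenes of any kind with at least 10 CPM, Tdgf1-ps1, Dppa5b, Fabp3-ps1 and Hsp25-ps1 were lower, Fabp3-ps1 at 82.2 and 15.1 CPM, and can share reads with their parent genes, so their values are uncertain.

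Between d6 and d8 a few genes changed sides. Cys1 and Mip were higher at d6 and lower at d8, on few reads. Cys1 had 4 reads in shLacZ and 11 in shDIS3L2 at d6 and 53 and 19 at d8. Mip had 7 and 22 at d6 and 17 and 5 at d8. Cpt1a, which imports fatty acids into mitochondria, had 132 reads in shLacZ and 28 in shDIS3L2 at d6 and 187 and 783 at d8. Thrb, a thyroid hormone receptor, had 19 and 3 reads at d6 and 14 and 106 at d8, and Oasl2 19 and 3 at d6 and 16 and 78 at d8.

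Of the genes at least 3-fold higher 65 of 350 (18.6%), and of those lower 77 of 549 (14%), belonged to one of the 50 lists, so most of the genes called lie outside them. A further motif, GGAATG, which TEAD factors bind, stood in 17.5% of promoters of genes higher, in 17.5% of genes lower and in 13.0% of all compared genes.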
